A study of Mus musculus with 12 samples.

Results

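The miR-29 family was examined at postnatal day 7 in the quadriceps of wild-type mice (WT) and of mice without cofilin-2 (KO). The family was taken as the rows of the miRNA array named mmu-miR-29a, mmu-miR-29b and mmu-miR-29c, which are 3 of the 1096 names in the table, with the names that end in a star left out. There were 6 WT and 6 KO mice, all labelled C57Bl/6, and each mouse gave 1 sample of total RNA (WT1 to WT6 and KO1 to KO6). Both alleles of Cfl2, the gene for the muscle actin-binding protein cofilin-2, are labelled null in KO. The study describes pairs of KO mice and WT littermates, with a myopathy in KO mice from soon after birth, and the labels name no other allele or agent. RNA of every WT mouse was labelled with Cy5 and RNA of every KO mouse with Cy3, and genotype and dye therefore cannot be told apart. Cfl2 is not measured on a miRNA array, and the genotypes were not checked from these values.

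MicroRNAs of the miR-29 family are short RNAs that pair through a shared seed with messenger RNAs and lower their output. They are best known for restraining genes of the extracellular matrix, among them collagens, elastin and fibrillin, and a loss of miR-29 accompanies fibrosis in several organs. In skeletal muscle they are known to favour the differentiation of myoblasts, in part by acting on the repressor Yy1 and its partner Rybp. Whether the family differs between muscle with and without cofilin-2 is the comparison that the design allows.

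The mature sequences are shown because all 3 members carry one and the same seed. RefSeq (GRCm38.p6) held all 4 miR-29 hairpins, and the members were read as the arm named -3p there. Capitals mark the seed, bases 2 to 8 from the 5′ end.
miR-29a: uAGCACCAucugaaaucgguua
miR-29b: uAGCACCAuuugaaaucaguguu
miR-29c: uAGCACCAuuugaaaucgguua
The seed is found in 3 of the 1679 mature mouse miRNA names in the RefSeq table, which are these 3 members. miR-29a and miR-29c are identical at 21 of 22 positions and differ by C10U, counted from the 5′ end with the base of miR-29a first. miR-29b is a base longer, at 23, and differs from miR-29a at 4 of the 22 positions they share, by C10U, G18A, U21G and A22U. With a single base between them, RNA of miR-29a and of miR-29c can bind each other's probes, and the probe sequences were not used here. The values of miR-29a and miR-29c are therefore uncertain as separate measurements. miR-29b differs from miR-29c at 3 of the 22 positions they share, by A18G, G21U and U22A, with the base of miR-29b first. Binding between miR-29b and the probes of the other members was not tested.

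The hairpins show where the members come from, and capitals mark the mature member within each. Mir29a and Mir29b-1 lie on the minus strand of chromosome 6, at chr6:31062660-31062747 and chr6:31063023-31063093, with 275 bases between them. Mir29b-2 and Mir29c lie on the plus strand of chromosome 1, at chr1:195037040-195037120 and chr1:195037547-195037634, with 426 bases between them.
Mir29a: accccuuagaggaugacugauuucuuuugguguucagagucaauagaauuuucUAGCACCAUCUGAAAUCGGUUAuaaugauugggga
Mir29b-1: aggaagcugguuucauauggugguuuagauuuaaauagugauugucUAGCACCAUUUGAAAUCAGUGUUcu
Mir29b-2: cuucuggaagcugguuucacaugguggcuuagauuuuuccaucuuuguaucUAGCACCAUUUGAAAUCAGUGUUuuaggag
Mir29c: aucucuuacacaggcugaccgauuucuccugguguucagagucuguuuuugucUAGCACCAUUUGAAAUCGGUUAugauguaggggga
miR-29b is the same RNA from both loci, so that its value cannot be assigned to either. In the RefSeq gene table, the chromosome 1 pair overlaps the long noncoding RNA gene A330023F24Rik, and its nearest protein-coding neighbour is Cd46, 1336 bases away. No other gene of the table overlaps the chromosome 6 pair. Its nearest gene on the higher side is Lncpint, a long noncoding RNA gene, at 30469 bases.

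The array brightness of all 3 members was very low in both genotypes. The values are normalized intensities on a linear scale, in arbitrary units and whole numbers, and the table gives no call of detection. Of the 36 values of the family, 1 reached 32, the mean intensity that a miRNA needed to enter the comparison across miRNAs, and 3 were listed at 0. The sum of all intensities was 594311 to 636136 per sample, the median name of a sample was at 12 to 14, and the first quartile at 4 to 7. No detection limit is given in the sources used here, and the number of arrays limits the precision.

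miR-29a, transcribed from the chromosome 6 locus, had intensities of 18, 7, 8, 9, 18 and 6 in WT1 to WT6. In KO1 to KO6 its intensities were 18, 2, 13, 5, 18 and 41. The KO samples spread more widely than the WT samples and held both the lowest value, in KO2, and the highest, in KO6, which was the value above 32. WT had a mean of 11.0 ± 5.51 (SD, n = 6), and the mean of KO was 16.2 ± 13.8 (SD, n = 6). All other samples lay at or below 18.

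miR-29b, the member that both loci make, had intensities of 9, 1, 2, 4, 5 and 0 in WT1 to WT6. In KO1 to KO6 its intensities were 3, 2, 1, 0, 3 and 0. All KO values fell within the range of the WT values, and WT1 was the highest. WT had a mean of 3.5 ± 3.27 (SD, n = 6), and the mean of KO was 1.5 ± 1.38 (SD, n = 6). miR-29c, from the chromosome 1 locus, had intensities of 7, 1, 2, 4, 2 and 1 in WT1 to WT6 and of 4, 2, 2, 1, 4 and 3 in KO1 to KO6. WT1 was again the highest sample and the groups overlapped throughout, the WT mean being 2.83 ± 2.32 (SD, n = 6) and the KO mean 2.67 ± 1.21 (SD, n = 6).

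**Figure D1:**
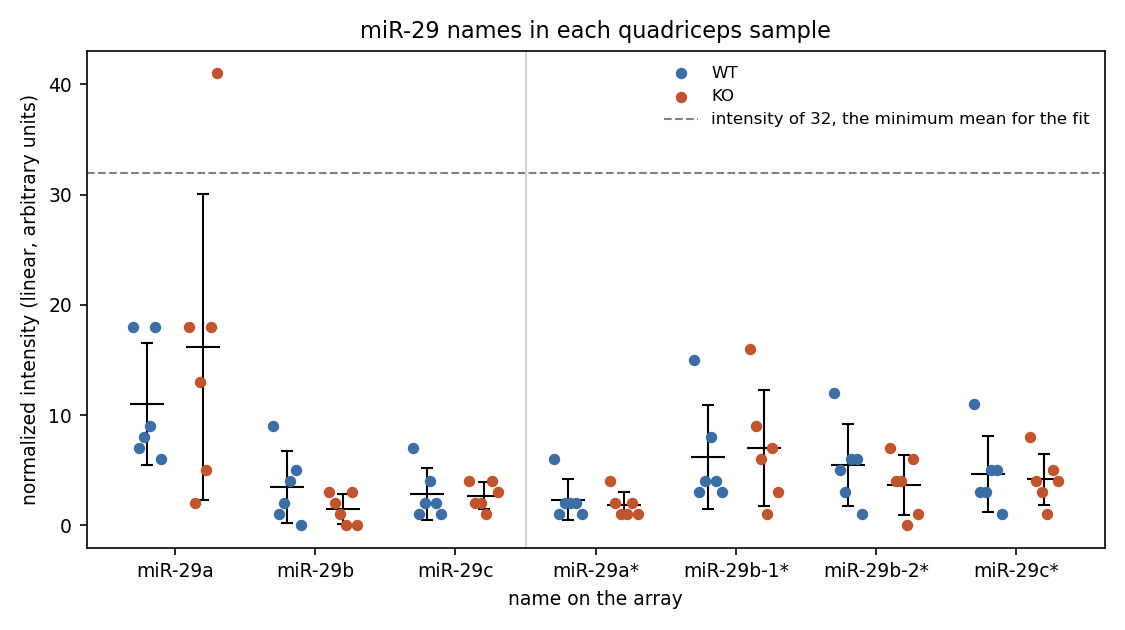
Normalized intensity (y axis, linear, arbitrary units) of the 3 members and of the 4 starred miR-29 names (x axis), with 1 point per sample, WT in blue and KO in orange; bars are the mean ± SD of 6 samples. The value of 41 for miR-29a in KO6 is the point above the dashed line at 32, and the WT and KO points of every name overlap.

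The opposite strands of the same hairpins were at the same low level. The array carried 4 such names, miR-29a*, miR-29b-1*, miR-29b-2* and miR-29c*, and their 48 values ran from 0 to 16. miR-29b-1*, which unlike miR-29b belongs to a single locus, had intensities of 15, 3, 4, 8, 4 and 3 in WT1 to WT6 and of 16, 9, 6, 1, 7 and 3 in KO1 to KO6. The highest sample was WT1 in WT and KO1 in KO for each of the 4 starred names. Thus WT1 was the highest or equal highest WT sample for all 7 miR-29 names on the array. None of the 4 starred names had a mean of 32 or more.

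To place these values on the scale of the array, they were set beside miRNAs that muscle fibres are known to make and beside miRNAs known from other tissues. Among the skeletal muscle miRNAs, miR-206 was at 21266 to 29194, and miR-133a at 5151 to 11466. miR-1a, looked up because the list's name miR-1 was not matched, was at 39535 to 71199. The muscle markers miR-499 and miR-208b, known from slow fibres and heart, had means of 12.3 and 3.58. The 9 listed miRNAs of epithelium, neurons and liver, such as miR-200a, miR-9 and miR-122, had means of 2.33 to 10.2 and a median value of 4. The mean of miR-29a over the 12 samples was 13.6, that of miR-29b 2.5 and that of miR-29c 2.75. Those of miR-29b and miR-29c lay within the range of the 9 non-muscle miRNAs and that of miR-29a above it. A mean no higher than that of miR-29a was found for 547 of the 1096 names, no higher than that of miR-29b for 55, and no higher than that of miR-29c for 71. Probes differ in how brightly they report an RNA, so these places describe the signal and not the relative abundance of miRNAs.

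**Figure D2:**
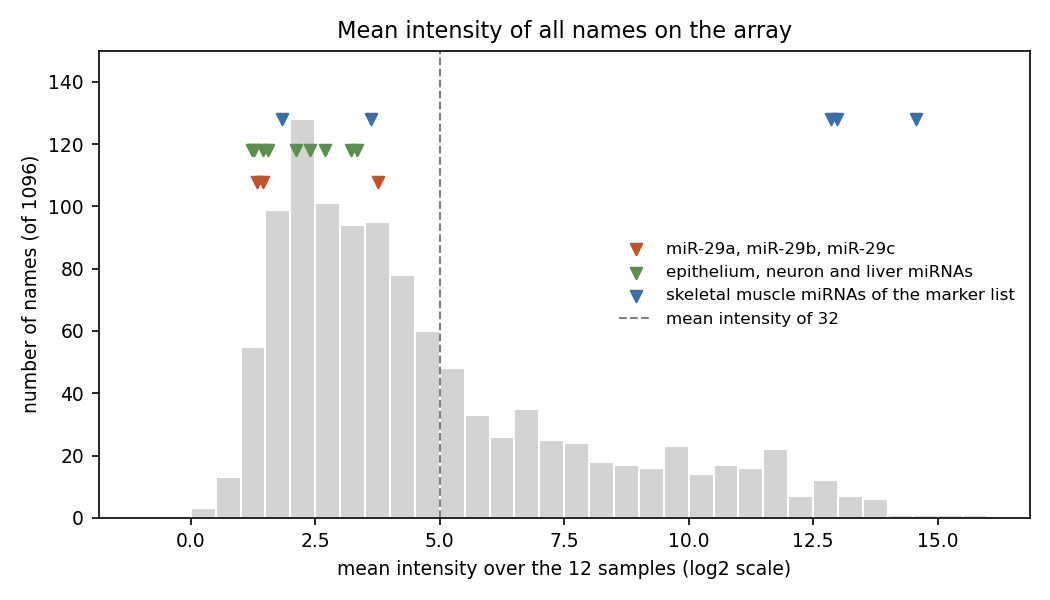
Number of names (y axis) by mean intensity over the 12 samples (x axis, log2 scale), with triangles at the means of the 3 miR-29 members, the 9 miRNAs of epithelium, neurons and liver, and the 5 matched skeletal muscle miRNAs; triangle height has no meaning. The members lie left of the dashed line at 32, among the non-muscle miRNAs or, for miR-29a at 13.6, just above them.

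No difference between KO and WT was detected for any of the 3 members. Their means were under 32, so that none of them entered the limma comparison of the 370 miRNAs at or above that level. Each was therefore compared by an exact permutation test of its mean log2 intensity, with values under 1 raised to 1, over the 924 assignments of the samples. For miR-29a the log2 change, KO minus WT, was 0.14 (exact p = 0.84, two-sided), with 1 KO sample above and 2 below every WT sample. For miR-29b it was -0.72 (exact p = 0.297), and for miR-29c 0.13 (exact p = 0.896), with no KO sample outside the WT range for either. The smallest p that 6 samples against 6 allow is 0.0022. The ratio of mean intensities, KO over WT, was 1.47 for miR-29a, where the log2 change was 0.14. The mean on the linear scale is weighted to the high value of KO6, and the mean of log2 values to the low value of KO2. Without KO6 the log2 change of miR-29a was -0.24, and without KO2 it was 0.63. At these intensities a step from 1 to 2 units is a change of 1 on the log2 scale, so that the log2 changes rest on differences of a few units.

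The intervals of these differences were wide. In a limma fit over all 1096 names, the 95% interval of the log2 change was -1.16 to 1.43 for miR-29a (adjusted p = 0.975). It was -1.89 to 0.45 for miR-29b (adjusted p = 0.647) and -0.93 to 1.19 for miR-29c (adjusted p = 0.966). Over all names in that fit, 6.57% were lower and 4.65% higher in KO at an unadjusted p under 0.05, and 0.0912% passed after adjustment, against 0 of the 3 members by either rule. The 4 starred names had log2 changes of -0.26 for miR-29a*, 0.01 for miR-29b-1*, -0.54 for miR-29b-2* and -0.06 for miR-29c*, with adjusted p-values of 0.801 to 1 from limma. These intervals do not show that the members were alike in KO and WT. In whole muscle, fewer cells that make miR-29 and less miR-29 per cell cannot be told apart.

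miR-29b and miR-29c moved with the level of dim names in each sample. This level was taken as the mean log2 intensity of the 719 names with a mean under 32, miR-29 names left out, and this comparison was chosen after the values were seen. It was 2.51 to 3.10 in WT and 2.43 to 2.92 in KO, highest in WT1 and KO1 and lowest in KO4, and KO minus WT was -0.11 (exact permutation p = 0.344). Across the 12 samples, the log2 intensity of miR-29b followed it with a Pearson's r of 0.93 (permutation p = 8.00e-05, adjusted over the 3 members 2.40e-04) and a Spearman's rho of 0.90 (permutation p = 2.70e-04, adjusted 8.10e-04). Without WT1 and KO1, the samples farthest from the median, r was 0.90 (permutation p = 7.60e-04). For miR-29c r was 0.80 (permutation p = 0.00215, adjusted 0.00322) and rho 0.77 (permutation p = 0.00539, adjusted 0.00808). Without WT1 and KO1 its r was 0.62 (permutation p = 0.0586), so that this relation rested in part on those samples. For miR-29a r was 0.24 (permutation p = 0.451, adjusted 0.451) and rho 0.41 (permutation p = 0.193, adjusted 0.193), and r was 0.02 without WT1 and KO1 (permutation p = 0.954). Within WT the r of miR-29a, miR-29b and miR-29c was 0.86, 0.99 and 0.96 (exact p = 0.0333, 0.00556 and 0.00556), and within KO it was -0.00111, 0.80 and 0.67 (exact p = 1, 0.0667 and 0.133). After the level of dim names was subtracted from each sample, the log2 changes were 0.25 for miR-29a, -0.61 for miR-29b and 0.24 for miR-29c (exact permutation p = 0.712, 0.255 and 0.584). The members are dim names themselves, and the r of other dim names with this level was not computed. The p-values of these correlations therefore do not set the members apart from other dim names. The part of this level in the values of the members was not tested.

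**Figure D3:**
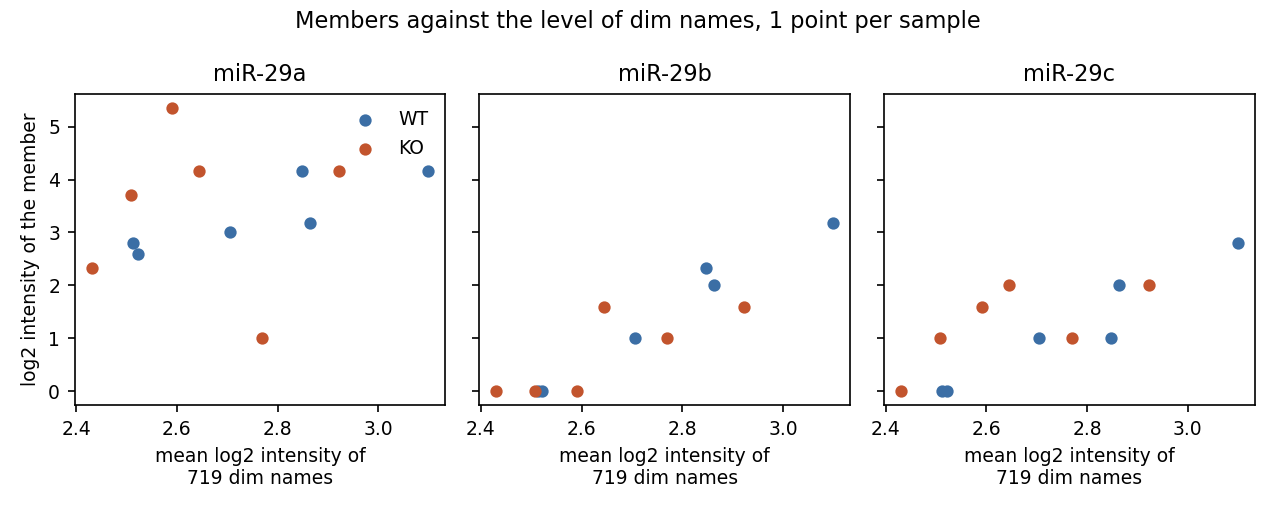
Log2 intensity of miR-29a, miR-29b and miR-29c (y axis, values under 1 raised to 1) against the mean log2 intensity of the 719 dim names (x axis), 1 point per sample, WT in blue and KO in orange. The points of miR-29b rise along the axis (r = 0.93), those of miR-29c less closely (r = 0.80), and those of miR-29a are scattered, with KO6 at the top.

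The members did not differ clearly from each other in how they changed. The 3 pairs were compared by the exact permutation test on the log2 difference of the members within each sample, with p-values adjusted over the pairs. The change of miR-29b was lower than that of miR-29c by -0.85 on the log2 scale (exact p = 0.0325, adjusted 0.0974). The difference of change between miR-29a and miR-29b was 0.86 (exact p = 0.312, adjusted 0.468), and between miR-29a and miR-29c it was 0.01 (exact p = 0.998, adjusted 0.998). None of the 3 passed after adjustment. Without KO2 or without KO4 the pair of miR-29b and miR-29c did pass, with -0.96 and an adjusted exact p of 0.0325 in each case. Without KO2 the pair of miR-29a and miR-29b also passed, with 1.41 and an adjusted exact p of 0.0487. With all samples paired by replicate number, the pair of miR-29b and miR-29c had an adjusted p of 0.375 (paired exact test). The labels do not say that this number marks a litter.

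From sample to sample, miR-29b and miR-29c rose and fell together. Across the 12 samples their r was 0.77 (permutation p = 0.00428, adjusted over the 3 pairs 0.0128) and their rho 0.73 (permutation p = 0.00947, adjusted 0.0226), and r was 0.78 without WT1 and WT5 (permutation p = 0.0159). Within groups it was 0.91 in WT (exact p = 0.0222) and 0.68 in KO (exact p = 0.167). miR-29a and miR-29c had an r of 0.55 (permutation p = 0.0607, adjusted 0.0911) and a rho of 0.70 (permutation p = 0.0151, adjusted 0.0226), and without KO2 and KO6 their r was 0.78 (permutation p = 0.0114). Within WT and KO it was 0.69 and 0.62 (exact p = 0.128 and 0.206). miR-29a and miR-29b, which share a locus on chromosome 6, had an r of 0.26 (permutation p = 0.413, adjusted 0.413) and a rho of 0.41 (permutation p = 0.178, adjusted 0.178). Their r was 0.73 without KO2 and KO6 (permutation p = 0.0225), 0.91 within WT (exact p = 0.0167) and -0.03 within KO (exact p = 0.933). Both miR-29b and miR-29c followed the level of dim names described above, and the part of that level in the r of this pair was not tested. Nor was binding of miR-29b and miR-29c to each other's probes tested. After cyclic loess, a normalization that aligns samples along the whole range of intensity, the r of miR-29b and miR-29c was 0.31 (permutation p, adjusted, 0.349). After median centring it was 0.75 (permutation p, adjusted, 0.0179). Without WT1 the r of this pair was 0.65 (permutation p, adjusted, 0.117).

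The miRNAs most like each member were looked for among the 370 with a mean of at least 32, by Pearson's r of the log2 intensity over the 12 samples, as a description with no p. For miR-29a these were miR-20b, miR-496 and miR-380-5p, with r of 0.85, 0.84 and 0.84. The intensities of miR-20b, a member of the miR-17 family, were 35, 26, 30, 37, 75 and 24 in WT1 to WT6 and 33, 15, 43, 28, 38 and 59 in KO1 to KO6. Like miR-29a, it was lowest in KO2, and KO6 was its highest KO sample. With group means removed, the r of these 3 was 0.86, 0.84 and 0.88. For miR-29b the nearest were miR-132, miR-362-5p and miR-3102, with r of 0.68, 0.66 and 0.61. For miR-29c they were miR-493, miR-1897-5p and miR-132, with r of 0.78, 0.72 and 0.71. miR-132 ran from 34 to 63 in WT and from 29 to 67 in KO. Its mean of 44.2 was low but above 32, so that it was not among the dim names.

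Other miRNAs linked to the biology of miR-29 gave a measurable signal in the same samples. Over the 370 miRNAs compared with limma, 9.73% were lower and 9.73% higher in KO at an unadjusted p under 0.05, 1.35% passed after adjustment, and the median log2 change was -0.08. Of 18 miRNAs known from matrix production and fibrosis, 17 were on the array by name and 16 were compared. None of the 16 passed at an unadjusted p under 0.05 by limma in either direction (by the methods' t-test, which the study names for its mRNA arrays and not for these, 1 did on log2 values, miR-30d), and their median log2 change was -0.35. With array weights, which give samples far from the fit less influence, 8 of the 16 were lower at that p and 5 passed after adjustment, where 82 of all 370 were lower and 115 passed. In the other settings 0 to 3 of the 16 were lower. miR-30d, of a family known to restrain the matrix factor Ctgf, had intensities of 1520 to 2155 in WT and of 1061 to 1845 in KO, a log2 change of -0.36 (adjusted p = 0.297 from limma). miR-21, which is known to rise in fibrotic tissue, ran from 35 to 370 in WT and from 15 to 326 in KO, so that both groups covered nearly the same range.

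Of 19 miRNAs known from myogenic differentiation, 17 were on the array by name and 16 were compared. Among them, miR-24, miR-133a, miR-133b and miR-214 were also on the matrix and fibrosis list. The list was chosen with earlier results of these data known and was not tested as a set. Of the 16, 5 fell at an unadjusted p under 0.05 while none rose, where 9.73% of all 370 were lower and 9.73% higher. The median log2 change of the 16 was -0.36. The 5 were miR-27b, miR-148a, miR-181a, miR-181b and miR-503, and miR-181b also passed after adjustment over all 370. miR-148a, which is known to promote differentiation, had intensities of 71 to 189 in WT (median 142) and of 11 to 162 in KO (median 42.5), and its log2 change was -1.69 with a standard error of 0.501 (limma, adjusted p = 0.0908). miR-503, which acts on Cdc25a at the exit from the cell cycle, was at 56 to 97 in WT and at 35 to 74 in KO (log2 change -0.51, adjusted p = 0.251 from limma). For miR-181a, miR-181b and miR-27b, the log2 changes were -0.71, -1.32 and -0.87 (adjusted p = 0.121, 0.0113 and 0.127 from limma). With a sample left out the number that fell was 4 or 5. Without KO1 it was 5, with miR-222 in place of miR-503, and 3 passed after adjustment, where 49 of all 370 did. With array weights 9 fell and 7 passed after adjustment, against 82 and 115 of all 370. With the replicate number as a block miR-222 again took the place of miR-503, and 1 passed after adjustment. None of the 16 passed after adjustment with the block and cyclic loess together, where 5 fell at the unadjusted p, or by the methods' t-test in a paired form, where 6 fell and miR-27b and miR-503 were not among them.

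Markers of other cell types were set beside these results. The endothelial miR-126-3p was at 2230 to 4741 in WT and at 760 to 2705 in KO, a log2 change of -1.20 (limma, adjusted p = 0.0615). The other endothelial name, miR-126-5p, was very dim, at 2 to 6 in WT and 1 to 5 in KO. The summed level of the 2 names, 2233 to 4745 and 765 to 2709, was therefore nearly all miR-126-3p. The 6 blood cell names summed to between 102 and 475 in WT and between 51 and 372 in KO. The smooth muscle names miR-143 and miR-145 summed to between 3555 and 4909 in WT and between 3241 and 6241 in KO. The 5 matched skeletal muscle names summed to between 35781 and 48034 in WT and between 31264 and 44065 in KO. Of these, miR-133a, miR-133b and miR-206 had log2 changes of -0.35, -0.38 and -0.08. The sum leaves out miR-1a, the brighter muscle miRNA whose listed name was not matched. Its mean was 45284 in WT and 51675 in KO, a log2 change of 0.17 in the other direction (limma, adjusted p = 0.685). The 6 epithelial names summed to between 13 and 39 in WT and between 17 and 38 in KO, the 2 neuronal names to between 5 and 17 and between 6 and 38, and miR-122 of liver ran from 3 to 16 and from 2 to 11. The part of these cell types in the values above was not tested.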

How the data were processed

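Quadriceps miRNA was profiled by LC Biosciences on an array that covers mouse miRBase 17. The deposited table holds intensity values that the authors had normalized, linear and in whole numbers. The methods state that data were normalized; the normalization, background correction and handling of repeated spots are not given in the sources used here. Samples were grouped by genotype and number in their titles, and all 12 were used. Where nothing else is said, log2 was taken of the intensity after a floor of 1 was set.

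Members and lists were chosen with earlier results of these data known. The design had planned limma 3.58.1 (R 4.3.3) for miRNAs whose mean intensity reached 32, of which there were 370. All 3 members fell below that level, so that exact permutation tests became their main test, and limma over all 1096 names an alternative. Adjusted p-values are those of Benjamini and Hochberg. Correlations used 100000 permutations, or all of them within a group. The p-values of group comparisons set a difference against the spread between mice, and do not separate genotype from dye. Those of correlations set r against permuted pairings of the samples. limma and the exact test were checked on simulated data. Named were the members, the starred miR-29 names, the 3 miRNAs most like each member, and listed miRNAs past the unadjusted threshold of 0.05, with a few others of the lists chosen after their values were seen. Of the listed names, miR-1, miR-199b and miR-486 were not matched. Sequences came from RefSeq (GRCm38.p6), and plots were drawn with matplotlib 3.10.9.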

Additional observations from a re-analysis of the deposited data

How the results depend on the processing

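No setting took the change of any member past its threshold, over 27 alternatives each. Of these, the log2 ratio of mean intensities had no p. A floor of 32 left miR-29b and miR-29c at one level, where neither could pass. The p-values of the other settings were exact or, for limma and the t-tests, adjusted over all 1096 names. The log2 change of miR-29b kept its direction or was 0, and was 0 only with a floor of 32, which raises all its values to one level. That of miR-29a ran from -0.24 to 0.63 with a sample left out, below 0 without WT6, KO1, KO5 or KO6. That of miR-29c ran from -0.10 to 0.46 with a sample left out, and was -0.00375 with a pseudocount of 50 and -0.167 intensity units on the linear scale, by a t-test of the kind the methods name for the mRNA arrays. The difference between the changes of miR-29a and miR-29c, 0.01, was -0.25 after quantile normalization, -0.31 after cyclic loess and -0.31 to 0.44 with a sample left out. Leaving out a sample gave 0.34 to 1.41 for miR-29a and miR-29b, and -0.96 to -0.64 for miR-29b and miR-29c. For these pairs in turn, the difference shrank to 0.06 and 0 with a floor of 32, and to 0.15 and -0.05 with a pseudocount of 50. The r of miR-29b and miR-29c was 0.42 after quantile normalization, 0.31 after cyclic loess, neither past the threshold, and 0.65 to 0.85 with a sample left out. The r of miR-29a and miR-29c passed it after cyclic loess (0.69) and without KO2, in a range of 0.50 to 0.68. A mean intensity of at least 500 left no member to test. The cause of these shifts was not tested.

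The replicate number was tried as a block, although the labels do not say that it marks a litter, and the deviations of same-numbered samples correlated at -0.45 to 0.59, over 0.1 in 3 of 6 pairs. In 5 of 12 samples the best match among the 6 samples of the other group had the same number. This count was not tested against chance. With the replicate block the log2 changes were 0.14, -0.72 and 0.13 for miR-29a, miR-29b and miR-29c (adjusted p = 0.961, 0.482 and 0.959 from limma), and it changed no other call on the members. Among the 370 miRNAs, the numbers lower and higher in KO at an unadjusted p under 0.05, 36 each, were 82 and 74 with array weights, 72 and 51 with no filter, 25 and 20 with a mean of at least 500, and 57 and 49 without KO1. The number past the adjusted threshold, 5, was 14 with a pseudocount of 50 and with a variance trend, 8 after quantile normalization, 11 after cyclic loess, 9 by that test, 0 by a paired t-test on log2 values (45 lower and 28 higher at an unadjusted p under 0.05), 115 with array weights, 21 with a mean of at least 500, 1 with no filter, and 3 to 49 with a sample left out. The 49 came without KO1 and the 3 without WT3 or KO2, while 11 passed without WT4 and 8 without KO4.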
